A study of Homo sapiens with 8 samples.

Results

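The 6 genes of the heterogeneous nuclear ribonucleoprotein (hnRNP) A, C and D families examined here are HNRNPA1, HNRNPA2B1, HNRNPA3, HNRNPC, HNRNPD and HNRNPDL. All skipped-exon events listed under these symbols were taken, 80 of the 82355 events in the table for MCF10A and 93 of the 98244 in that for HMLE TWIST. They made 115 distinct events over 55 exons, out of 120573 events over 78338 exons in the series, and 58 events were listed for both lines. MCF10A is a non-tumorigenic breast epithelial line, and HMLE TWIST is a line of immortalised breast epithelial cells with an integrated retroviral construct from which the transcription factor TWIST is overexpressed. The labels do not say whether HMLE TWIST is a clone or a pool. Each line was grown for 24 hours with the solvent DMSO, which served as the control, or with 10 µM emetine, an alkaloid that blocks protein synthesis. That gave 4 groups of 2 libraries, made from polyadenylated RNA and called biological replicates by the submitters. The series looks for compounds that alter splicing through RNA G-quadruplexes, structures built from stacked runs of guanine.

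The hnRNP proteins coat nascent transcripts and steer splice site choice, export, stability and translation. The A and D family members carry paired RNA recognition motifs followed by a glycine-rich tail that drives their self-association, and HNRNPC binds runs of uridine, where it keeps splicing factors off cryptic exons. Several of these genes also splice an exon into their own 3' untranslated region, which places the stop codon upstream of an exon junction and marks the mRNA for nonsense-mediated decay. That pathway recognises its targets during translation.

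The exons fell into classes by their place in the GENCODE 29 gene models, to which all 55 could be matched. Of them, 36 lie within coding sequence, 7 are coding in part, 8 lie in the 5' untranslated region, 3 occur only downstream of the stop codon in transcripts annotated as decay targets, and 1 occurs only in a noncoding transcript. The 8 exons of the 5' untranslated region all belong to HNRNPC, and the 3 decay exons belong to HNRNPA2B1, HNRNPD and HNRNPDL. Coordinates below are those of the deposited tables, on GRCh37.

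The alternative coding exons are shown here by the 30 bases of each with the most bases in runs of G, since the series concerns such runs. Capitals mark runs of 2 or more G. The letters are those of the GENCODE 29 transcripts, written 5′ to 3′ on the strand of the gene, which is plus for HNRNPA1 and HNRNPA3 and minus for the others.
HNRNPA1 156 nt exon, bases 122 to 151, chr12:54676984-54677013: caacGGaGGcGGaGGcGGctttGGcGGtGG
HNRNPA2B1 120 nt exon, bases 29 to 58, chr7:26233257-26233286: tGGaGGaGGaagaGGaGGatatGGtGGtGG
HNRNPA3 141 nt exon, bases 74 to 103, chr2:178082506-178082535: ccaaGGtGGtGGatatGGtGGaGGtGGaGG
HNRNPD 147 nt exon, bases 68 to 97, chr4:83277740-83277769: taacagccaaGGttacGGtGGttatGGaGG
HNRNPDL 171 nt exon, bases 119 to 148, chr4:83347639-83347668: tGGGtataactatGGGaactatGGatatGG
HNRNPA2B1 36 nt exon, bases 1 to 30, chr7:26237457-26237486: aaaactttagaaactgttcctttGGagaGG
HNRNPD 57 nt exon, bases 21 to 50, chr4:83292688-83292717: gacactctgaagcagcgacGGcacagcGGG
The first 5 exons encode part of the glycine-rich tail and the last 2 encode segments near the amino terminus.

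In the 3 exons of the A family tail, G made up 43.6% (HNRNPA1), 44.2% (HNRNPA2B1) and 42.6% (HNRNPA3) of the whole exon, against 24.5% in the 147 nt exon of HNRNPD and 26.3% in the 171 nt exon of HNRNPDL, and 22.2% and 22.8% in the 36 nt exon of HNRNPA2B1 and the 57 nt exon of HNRNPD. A pattern of 4 runs of GG separated by gaps of 1 to 7 bases was present in all 5 tail exons and in neither of the other two, and its complement, which marks the opposite strand, was in none of the 7. Among all coding exons of the same length in GENCODE 29 the pattern was present in 27.7% at 156 nt, 18.0% at 120 nt, 23.6% at 141 nt, 25.5% at 147 nt and 27.0% at 171 nt, and in 24.5% at 36 nt and 11.4% at 57 nt. Those exons were matched by length only and not by glycine content. Every exon found here with the pattern encodes the tail, so the pattern and the tail cannot be told apart. The 10 pairs of tail exons were identical at 65.9% (HNRNPA1 and HNRNPD) to 82.2% (HNRNPA3 and HNRNPDL) of their aligned bases. Pairs within a family were not set apart, at 76.9% for HNRNPD and HNRNPDL and at 74.6%, 75.8% and 82.1% within the A family. The aligned bases made up 67.8% to 88.5% of the longer exon, and 69.0% for HNRNPA3 and HNRNPDL, so the identities cover unlike parts. Presence of the letters is a description of the exon and does not show that a structure forms.

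Summed reads over all events, in which a read can count several times, were 78412292 to 83483642 per MCF10A library and 90031966 to 91259363 per HMLE TWIST library. Reads of the epithelial markers outnumbered those of the mesenchymal markers in MCF10A, and the reverse held in HMLE TWIST. In the MCF10A controls 7 of 10 epithelial markers had events, with 63496 to 65343 reads in sum (37869 to 38722 under emetine), and 6 of 8 mesenchymal markers had 26783 to 30130 (6454 to 6950 under emetine), nearly all from VIM. In HMLE TWIST 5 of 10 epithelial markers had 84 to 152 reads in the controls and 105 to 118 under emetine, with CDH1 at a mean of 1, and all 8 mesenchymal markers had 351893 to 353517 in the controls and 179206 to 203604 under emetine. The epithelial label of HMLE TWIST was thus not borne out by these genes. Of the markers of blood and endothelium only PTPRC in HMLE TWIST had a listed event, with at most 2 reads in a library. The others had no listed event, which does not show that they were absent. How far the marker difference enters the contrasts between the lines was not tested.

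The inclusion level of an exon is the share of the inclusion form in the sum of an event's inclusion and skipping forms. It comes from junction reads corrected for effective length, and other splice forms of the gene are not counted. An event was called changed where its adjusted p-value in a quasi-binomial model was under 0.05 and its mean level moved by at least 0.1, and only such events are said here to rise or fall. The sign of every change rests on reading the tables' sample 1 as DMSO and sample 2 as emetine, the order in which their names give the treatments. In each line 36 member events had the reads and the variation to be tested. In MCF10A 6 of them (16.7%) were called, 5 higher and 1 lower under emetine, where 13.1% of all tested events were called, 7.93% higher and 5.14% lower. In HMLE TWIST 6 of 36 were also called, 5 higher and 1 lower, beside 14.2% of all events, 6.23% higher and 7.97% lower. The share of member events called was thus near the background in both lines. The median change was -0.000768 in MCF10A and -0.000833 in HMLE TWIST, against -0.000168 and -0.00315 over all events. By class, all 3 decay events tested were called higher in each line, as were 2 of 11 events of the 5' untranslated region in MCF10A and 1 of 11 in HMLE TWIST. Of the events of coding exons, 1 of 20 was called in MCF10A, lower, and 2 of 19 in HMLE TWIST, 1 in each direction, and none of the 2 and 3 partly coding events was called. Most other member exons were included in nearly every transcript.

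All 3 decay exons rose under emetine in both lines. Limma on the log odds, which called 7.88% of all events in MCF10A and 9.94% in HMLE TWIST, called them as well. The exon of HNRNPA2B1 (ENSG00000122566.20), a factor in splicing and in the sorting of small RNAs, is 136 nt long (chromosome 7, 26230613 to 26230748). Its level rose in MCF10A by 0.327, from 0.625 ± 0.0308 to 0.952 ± 0.00758, and in HMLE TWIST by 0.324, from 0.600 ± 0.00210 to 0.924 ± 0.00975 (SD, n = 2). The quasi-binomial model gave adjusted p-values of 2.63e-21 for MCF10A and 1.04e-21 for HMLE TWIST, and limma gave 0.0146 and 0.0141. The event counts only transcripts that join the exon at 26232115 to 26232197 to the 136 nt exon or to one ending at 26230080. Their reads were far more numerous with emetine. Neither count holds transcripts that join that exon (83 nt) to one ending at 26231958. Reads including the 83 nt exon in that form numbered 16854 and 17083 in MCF10A with DMSO and 11234 and 10584 with emetine. These also count its upstream junction, which the event's forms share. The level is thus not a share of all HNRNPA2B1 transcripts. Reads that include the 136 nt exon numbered 560 and 594 in MCF10A with DMSO and 9256 and 8556 with emetine. Reads that skip it numbered 184 and 162 and 206 and 241. HMLE TWIST had the same pattern, as the including reads went from 432 and 370 to 5632 and 3187 and the skipping reads from 143 and 124 to 209 and 144. The libraries with emetine thus differed mainly in the including reads.

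HNRNPD (ENSG00000138668.18) encodes AUF1, which binds AU-rich elements and regulates mRNA turnover. Its 107 nt decay exon (chromosome 4, 83276048 to 83276154) was nearly absent from control transcripts. The MCF10A control libraries had inclusion levels of 0.0206 and 0.0182 (mean 0.0194 ± 0.00168, SD, n = 2), and the emetine libraries 0.206 and 0.213 (mean 0.210 ± 0.00465). The levels in HMLE TWIST were 0.00528 and 0.0107 in DMSO (mean 0.00798 ± 0.00381) and 0.125 and 0.0933 under emetine (mean 0.109 ± 0.0226). The exon rose in both lines, and the libraries of the groups did not overlap. Adjusted p-values were 4.16e-32 (MCF10A) and 1.33e-37 (HMLE TWIST) by the quasi-binomial model and 0.0145 and 0.0140 by limma. Including reads in MCF10A numbered 146 and 124 with DMSO and 1827 and 1895 with emetine, at skipping reads of 3469 and 3337 and 3516 and 3505. HMLE TWIST had 67 and 110 including reads with DMSO and 1750 and 1204 with emetine. The change was 0.190 in MCF10A and 0.101 in HMLE TWIST, where it lay just past the threshold of 0.1. Replicates are numbered by the order in which a cell lists them. Without control replicate 1 or without emetine replicate 1 the HMLE TWIST change was 0.0986 or 0.0853, which ends the call there.

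HNRNPDL (ENSG00000152795.17) encodes a close relative of AUF1 and lies beside HNRNPD on chromosome 4. Its decay exon of 105 nt (chromosome 4, 83346716 to 83346820) also lies in the 3' untranslated region and was in use before treatment. Its levels were 0.316 and 0.317 in the DMSO libraries of MCF10A and 0.610 and 0.700 in the emetine libraries, with means of 0.316 ± 0.000301 and 0.655 ± 0.0635 (SD, n = 2). Those of HMLE TWIST were 0.178 and 0.272 with DMSO and 0.517 and 0.508 with emetine, with means of 0.225 ± 0.0663 and 0.512 ± 0.00604. Every emetine library lay above every control library. By the quasi-binomial model the adjusted p-values for MCF10A and HMLE TWIST were 1.05e-19 and 1.34e-23, and by limma 0.0387 and 0.0484. The including reads were again more numerous with emetine, going in MCF10A from 722 and 779 to 2283 and 2506, and in HMLE TWIST from 421 and 518 to 1982 and 1591. More splicing to a decay form and slower loss of that form cannot be told apart from these counts.

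**Figure D1:**
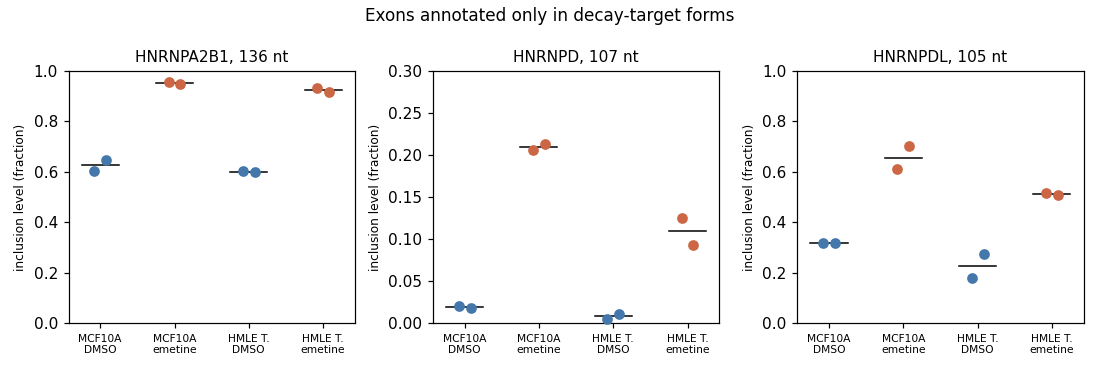
Inclusion level (inclusion form as a fraction of each event's forms) of the decay exons of HNRNPA2B1, HNRNPD and HNRNPDL in the 8 libraries. Points are libraries, bars are means of 2, and the vertical scales differ. In each panel the emetine points lie above the DMSO points of the same line, and the emetine points of HMLE TWIST (HMLE T.) lie below those of MCF10A.

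Among the coding exons, calls were made only for a pair in HNRNPD, 1 lower in both lines and 1 higher in HMLE TWIST. The 147 nt exon (chromosome 4, 83277690 to 83277836), in frame with 49 codons, adds a stretch to the glycine-rich tail of AUF1. It was in about as many control transcripts as not. MCF10A libraries had levels of 0.525 and 0.519 without the compound and 0.388 and 0.399 with it, which gave means of 0.522 ± 0.00429 and 0.394 ± 0.00832 (SD, n = 2). HMLE TWIST libraries had 0.492 and 0.501 without it and 0.339 and 0.329 with it, for means of 0.497 ± 0.00652 and 0.334 ± 0.00763. The level fell by 0.128 in MCF10A and fell by 0.163 in HMLE TWIST, and no control library overlapped an emetine library. The quasi-binomial model gave adjusted p-values of 1.09e-15 for MCF10A and 3.44e-30 for HMLE TWIST, and limma gave 0.227 and 0.142, so that limma did not call it in either line. Including reads went from 4180 and 3819 to 3580 and 3777 in MCF10A and from 6321 and 5577 to 4731 and 4223 in HMLE TWIST. Skipping reads went from 1894 and 1773 to 2828 and 2840 and from 3261 and 2773 to 4603 and 4313, so that in each line the skipping reads were more numerous with emetine and the including reads were not.

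The 57 nt exon of HNRNPD (chromosome 4, 83292681 to 83292737), in frame with 19 codons, extends the amino-terminal part of AUF1. Its presence or absence, with that of the 147 nt exon, defines the 4 classical protein isoforms. With DMSO the level was 0.724 and 0.751 in the MCF10A libraries (mean 0.737 ± 0.0185, SD, n = 2) and 0.685 and 0.619 in those of HMLE TWIST (mean 0.652 ± 0.0463). With emetine it was 0.823 and 0.815 (mean 0.819 ± 0.00583) and 0.859 and 0.832 (mean 0.845 ± 0.0193). The exon rose in HMLE TWIST by 0.193. In MCF10A the change of 0.0817 stayed under 0.1, although the groups did not overlap. Adjusted p-values were 5.6e-09 (MCF10A) and 2.13e-27 (HMLE TWIST) by the quasi-binomial model and 0.264 and 0.0622 by limma, so the call in HMLE TWIST was lost in limma.

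In HNRNPA2B1 the 36 nt exon (chromosome 7, 26237451 to 26237486, 12 codons) distinguishes the B1 protein, which has it, from the more abundant A2. The MCF10A control libraries had inclusion levels of 0.101 and 0.104 (mean 0.103 ± 0.00217, SD, n = 2), and the emetine libraries 0.200 and 0.203 (mean 0.201 ± 0.00173). The levels in HMLE TWIST were 0.149 and 0.147 in DMSO (mean 0.148 ± 0.00150) and 0.230 and 0.198 under emetine (mean 0.214 ± 0.0228). The emetine libraries were above the controls in both lines, but the changes of 0.0987 and 0.0662 were under 0.1 and were not called. By the quasi-binomial model the adjusted p-values for MCF10A and HMLE TWIST were 8.46e-24 and 4.9e-15, and by limma 0.103 and 0.297. Counting reads with no correction for length, the MCF10A change was 0.120 and would be called, as it would without MCF10A control replicate 2 (0.1002).

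HNRNPA1 (ENSG00000135486.17), a general splicing repressor, has a 156 nt exon (chromosome 12, 54676863 to 54677018, 52 codons) that lengthens its glycine-rich tail in the A1B isoform. Its levels were 0.0864 and 0.0752 in the DMSO libraries of MCF10A and 0.0329 and 0.0341 in the emetine libraries, with means of 0.0808 ± 0.00787 and 0.0335 ± 0.000861 (SD, n = 2). Those of HMLE TWIST were 0.104 and 0.0953 with DMSO and 0.0467 and 0.0422 with emetine, with means of 0.0997 ± 0.00620 and 0.0444 ± 0.00319. The exon was less used in every emetine library than in any control library of its line, at changes of -0.0473 and -0.0553 that were not called because of their size. The quasi-binomial model gave adjusted p-values of 1.55e-19 for MCF10A and 4.38e-23 for HMLE TWIST, and limma gave 0.0766 and 0.0866. Its depth was large, with at least 4630 reads in every library.

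The tail exons of the other members were included almost always, and their small differences were looked at after the values were seen. For the 120 nt exon of HNRNPA2B1 (chromosome 7, 26233195 to 26233314) the MCF10A mean went from 0.993 ± 0.00258 to 0.969 ± 0.00821, and the HMLE TWIST mean from 0.991 ± 0.000376 to 0.960 ± 0.00623 (SD, n = 2). For the 171 nt exon of HNRNPDL (chromosome 4, 83347616 to 83347786) it went from 0.992 ± 0.000784 to 0.920 ± 0.00888 and from 0.976 ± 0.00819 to 0.939 ± 0.00705. Both had adjusted p-values under 0.05 in the quasi-binomial model in each line (the largest, 1.72e-05), with changes under 0.1. The 141 nt exon of HNRNPA3 (ENSG00000170144.18; chromosome 2, 178082433 to 178082573) gave no detected change, with means of 0.962 ± 0.00262 and 0.951 ± 0.00897 in MCF10A and of 0.977 ± 0.000388 and 0.979 ± 0.0121 in HMLE TWIST, and adjusted p-values of 0.366 and 0.954. Of the 5 tail exons with the G-run pattern, 4 thus had lower mean levels under emetine in both lines, 1 of them past the threshold for a call, and the 2 segments without it had higher mean levels. That division is also the one between tail exons and amino-terminal exons. Seen in exons that share sequence, it was not tested. The tail exons of HNRNPA2B1, HNRNPA3 and HNRNPDL were added after the values were seen. Those of HNRNPA2B1 and HNRNPDL had control means of at least 0.976, which left little room for higher levels. The share of all tested events with lower mean levels in both lines was not counted. Among all tested coding events of the members, most with adjusted p-values under 0.05 in the quasi-binomial model were lower. These numbered 5 lower and 2 higher in MCF10A and 10 lower and 2 higher in HMLE TWIST, the exons above included. The other coding exons were not searched for the pattern.

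**Figure D2:**
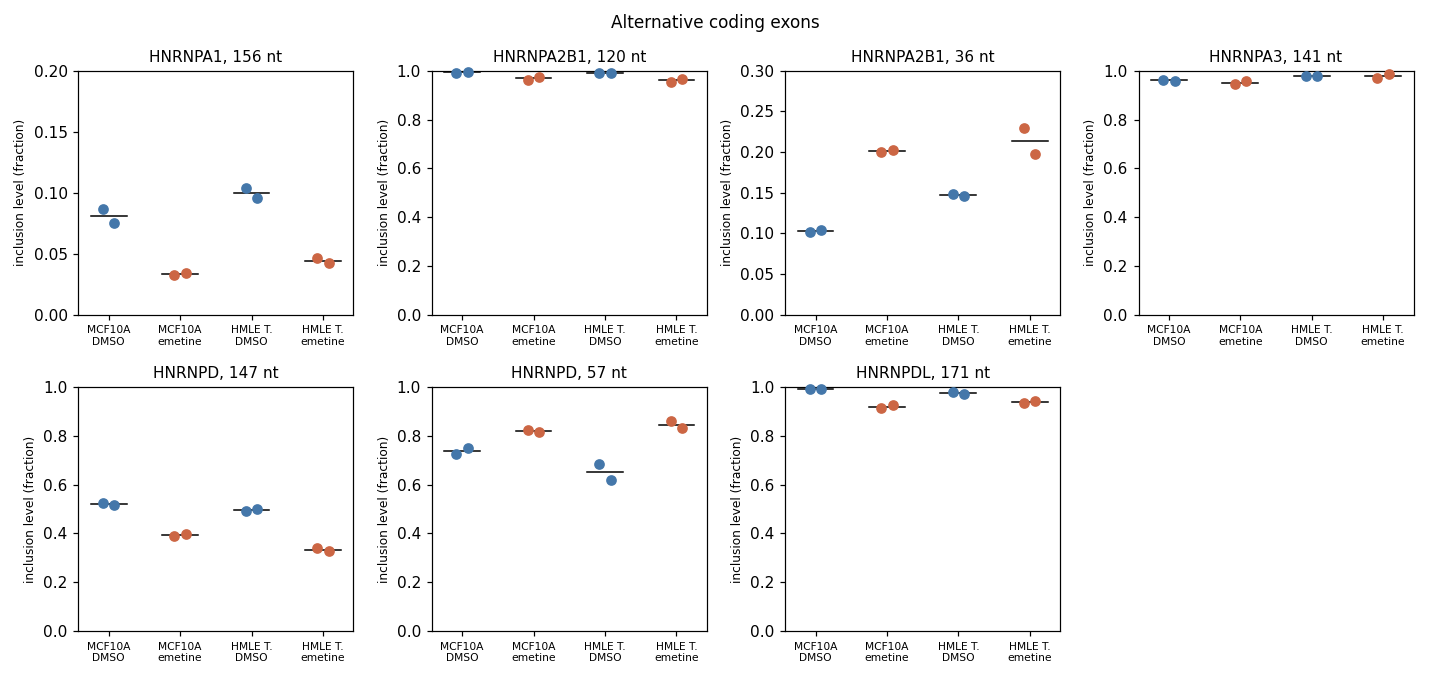
Inclusion level (inclusion form as a fraction of each event's forms) of 7 alternative coding exons in the 8 libraries. Points are libraries, bars are means of 2, and the vertical scales differ. The 57 nt exon of HNRNPD is higher and its 147 nt exon lower under emetine, the 36 nt exon is higher and the 156 nt exon lower under emetine, and the 3 remaining tail exons stay above 0.9.

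HNRNPC (ENSG00000092199.17) had no called change in its coding sequence but 2 upstream of it. The lowest mean level among its tested coding and partly coding exons was 0.994. Before the start codon the gene offers 8 alternative exons, and the 163 nt exon (chromosome 14, 21731826 to 21731988) was rare in the controls. MCF10A libraries had levels of 0.0144 and 0.0163 without the compound and 0.248 and 0.199 with it, which gave means of 0.0154 ± 0.00134 and 0.223 ± 0.0346 (SD, n = 2). HMLE TWIST libraries had 0.0209 and 0.0224 without it and 0.142 and 0.113 with it, for means of 0.0217 ± 0.00104 and 0.127 ± 0.0204. It rose in both lines. Adjusted p-values were 5.82e-33 (MCF10A) and 6e-36 (HMLE TWIST) by the quasi-binomial model and 0.0145 and 0.0175 by limma. In HMLE TWIST, leaving out emetine replicate 1 brought the change of 0.106 to 0.0912, under the threshold.

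A neighbouring exon of 168 nt (chromosome 14, 21730760 to 21730927), annotated in 1 coding transcript, also had higher levels under emetine. With DMSO the level was 0.00406 and 0.00463 in the MCF10A libraries (mean 0.00435 ± 0.000405, SD, n = 2) and 0.00608 and 0.00503 in those of HMLE TWIST (mean 0.00555 ± 0.000738). With emetine it was 0.190 and 0.143 (mean 0.167 ± 0.0333) and 0.0931 and 0.0575 (mean 0.0753 ± 0.0252). It rose in MCF10A by 0.163, while the HMLE TWIST change of 0.0697 was too small for a call. By the quasi-binomial model the adjusted p-values for MCF10A and HMLE TWIST were 1.56e-31 and 9.07e-31, and by limma 0.0145 and 0.0127. Without the correction for length the change in HMLE TWIST was 0.128, past the threshold. Including reads in MCF10A went from 48 and 59 to 2228 and 1716, and in HMLE TWIST from 75 and 50 to 944 and 564.

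Rarer exons of the same region, looked at after the values were seen, also had higher levels in every emetine library, below the size for a call. The 88 nt exon (chromosome 14, 21704532 to 21704619) had MCF10A means of 0.0111 ± 0.00147 and 0.0625 ± 0.000450, and HMLE TWIST means of 0.00616 ± 0.000680 and 0.0156 ± 0.00124 (SD, n = 2; DMSO first). The 46 nt exon (chromosome 14, 21736782 to 21736827) went from 0.00502 ± 0.00127 to 0.0316 ± 0.00174 and from 0.00671 ± 0.00116 to 0.0265 ± 0.00280. The 47 nt exon (chromosome 14, 21722706 to 21722752), with at most 3 including reads in any control library, had 48 and 35 in the MCF10A libraries with emetine, and 22 and 11 in those of HMLE TWIST. The common 26 nt exon (chromosome 14, 21731470 to 21731495), present in 19 of the annotated transcripts, had lower levels, from 0.694 ± 0.0150 to 0.627 ± 0.0189 and from 0.606 ± 0.0315 to 0.546 ± 0.00850. Its longer form of 272 nt, which shares the start coordinate, went from 0.265 ± 0.00733 to 0.210 ± 0.00812 and from 0.196 ± 0.0185 to 0.171 ± 0.00444. None of these 5 was called, and limma's adjusted p-values for the last 2 were at least 0.452. The 168, 88 and 47 nt events share their skipping reads, as do the 163 and 46 nt events and the 26 and 272 nt events, so these 7 are not independent. The 168, 88 and 47 nt exons flank the 26 nt exon downstream, and the 163 and 46 nt exons upstream. A transcript with any of them can still hold the 26 nt exon but lacks a junction that the 26 nt event counts. In MCF10A the junction skipping the 168 nt exon had 5889 and 6339 reads with DMSO and 4734 and 5123 with emetine. How far this enters the lower level of the 26 nt exon was not tested.

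**Figure D3:**
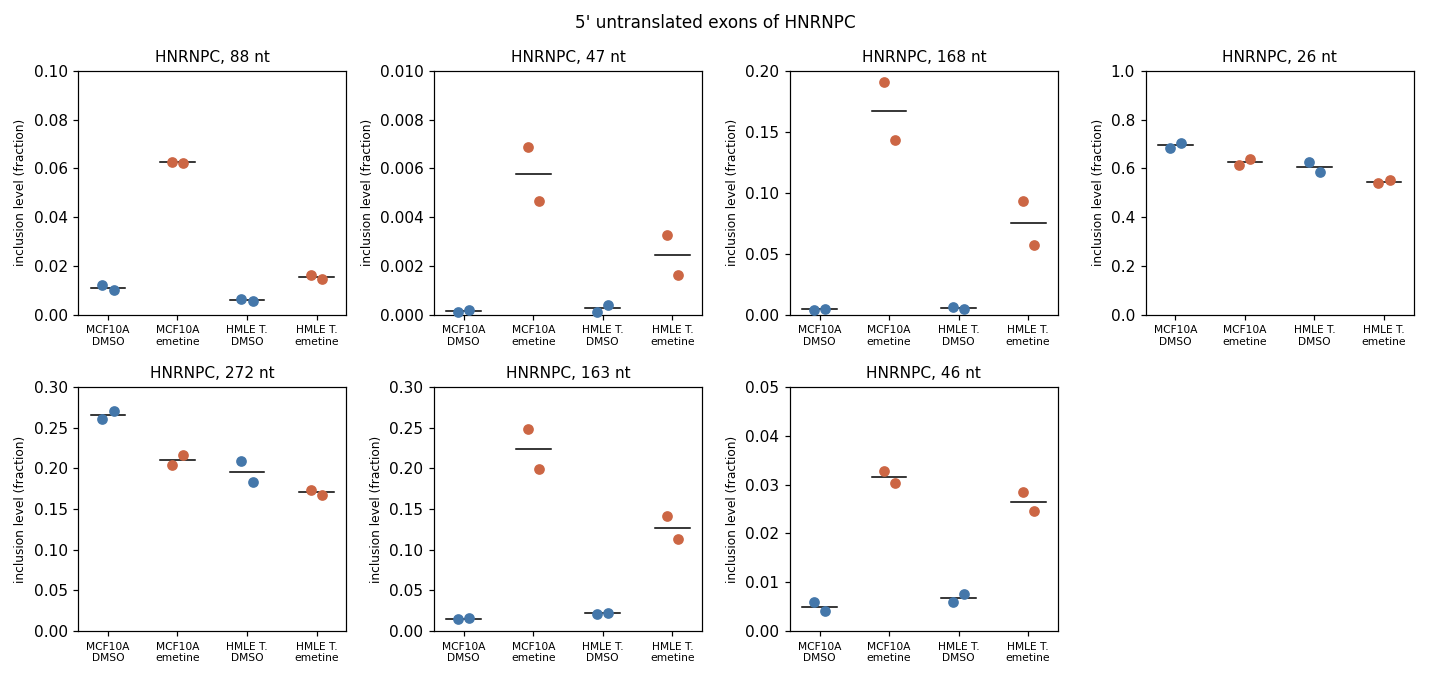
Inclusion level (inclusion form as a fraction of each event's forms) of 7 exons in the 5' untranslated region of HNRNPC in the 8 libraries. Points are libraries, bars are means of 2, and the vertical scales differ. The 163, 168, 88, 47 and 46 nt exons are higher under emetine in both lines, and the 26 and 272 nt exons are lower.

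Whether the lines responded differently was tested over all 8 libraries with the line by treatment term, which works on the odds of inclusion. Of 31 member events tested, 2 were called, against 1.80% of all events. The 57 nt exon of HNRNPD had the larger change in HMLE TWIST, by 0.112 (adjusted p = 0.00369 in the quasi-binomial model), and the 163 nt exon of HNRNPC the larger change in MCF10A, with a difference of -0.102 (adjusted p = 0.00220). With each event's own dispersion where that was larger, which called 1.13% of all events, the adjusted p-values were 0.242 and 0.252 and neither was called. Limma called 0 of all 20127 events for this term (0.00%), so its adjusted p-values of 0.497 and 0.282 say nothing of these exons in particular. For HNRNPD the difference also went under 0.1 with no correction for length (0.0882), without MCF10A control replicate 2 (0.0985), without HMLE TWIST control replicate 2 (0.0789) and without HMLE TWIST emetine replicate 1 (0.0980), and for HNRNPC without MCF10A emetine replicate 1 (-0.0779) and without HMLE TWIST emetine replicate 2 (-0.0880). A further 3 events had adjusted p-values under 0.05 with differences under 0.1 in size, the 36 nt exon of HNRNPA2B1 (-0.0325), the 88 nt exon of HNRNPC (-0.0419) and the 171 nt exon of HNRNPDL (0.0361). How many of all events had such p-values was not counted. The 168 nt exon of HNRNPC was called without MCF10A emetine replicate 2 (-0.116) and without HMLE TWIST emetine replicate 1 (-0.111). For the decay exons the test found no difference of response on the odds scale, with adjusted p-values of 0.382 for HNRNPA2B1, 0.818 for HNRNPD and 0.875 for HNRNPDL, which does not show that they responded alike.

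Under emetine, 2 of 37 member events were called between the lines, both lower in HMLE TWIST, where 8.67% of all events were called and 6.99% were called lower. They were the decay exons of HNRNPD, with a difference of -0.100 in level, and of HNRNPDL, at -0.143 (adjusted p = 1.26e-09 and 7.23e-06 in the quasi-binomial model). A further 13 had an adjusted p-value under 0.05 with a difference under 0.1. Limma gave 0.172 and 0.261, where it called 0 of all 30086 events (0.00%). Without MCF10A emetine replicate 2 the differences were -0.0970 and -0.0979, and without HMLE TWIST emetine replicate 2 that of HNRNPD was -0.0843, each short of a call. The 168 and 163 nt exons of HNRNPC, at -0.0917 and -0.0961, were past the threshold with no correction for length (-0.146 and -0.139), without MCF10A emetine replicate 2 (-0.115 and -0.121) and without HMLE TWIST emetine replicate 1 (-0.109 and -0.111). In the controls none of 29 member events was called, against 5.56% of all events, although 13 had an adjusted p-value under 0.05 and 14 an unadjusted one, with differences under 0.1 in size. Limma also called none of the members, and 0.185% of all events. The share of all events with an adjusted p-value under 0.05 at any size of difference was not counted, here or under emetine. The largest difference between the controls was that of the HNRNPDL decay exon, -0.0914 in level, and it was past the threshold with no correction for length (-0.116) and without HMLE TWIST control replicate 2 (-0.138). Without HMLE TWIST control replicate 1 the 26 nt exon of HNRNPC (-0.111) and the 57 nt exon of HNRNPD (-0.118) were past it.

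**Figure D4:**
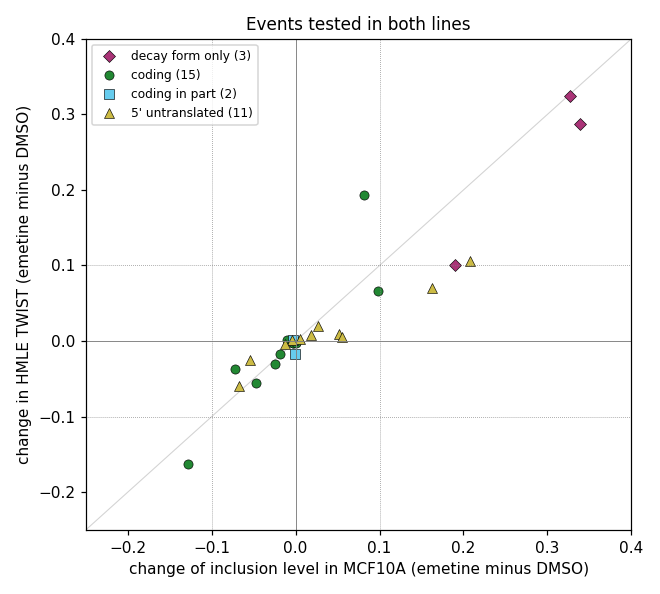
Change of inclusion level (emetine minus DMSO) in MCF10A on the horizontal axis and in HMLE TWIST on the vertical axis for the 31 member events tested in both lines. Symbols mark the exon class, dotted lines a change of 0.1 and the grey diagonal equal changes. In 17 events both changes are under 0.05 in size, and the 3 decay exons and the 163 nt exon of HNRNPC have both changes above 0.1.

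The tables hold no gene expression, but the reads over the deepest event of each gene give a rough view of its transcripts. For HNRNPA1 they numbered 54481 and 56541 with DMSO against 17468 and 18415 with emetine in MCF10A, and 36588 and 33779 against 10682 and 12331 in HMLE TWIST. For HNRNPA3 they numbered 8227 and 8678 against 3228 and 3003 in MCF10A, and 10858 and 7786 against 3370 and 2463 in HMLE TWIST. The ratio of emetine to control was thus 0.323 and 0.327 for HNRNPA1 and 0.369 and 0.313 for HNRNPA3, where the median over 9028 genes in MCF10A was 1.10 and over 8930 in HMLE TWIST 1.22. Between 3.35% and 7.71% of genes had a lower ratio. For HNRNPC, HNRNPD and HNRNPDL the ratio was 1.14 to 1.28, and for HNRNPA2B1 it was 0.937 and 0.716. These values are unscaled and carry no test, and reads shared with processed pseudogenes are not accounted for. They are reads within a library and give no amount of RNA per cell. The A1 and A3 tail exons rest on these lower read numbers under emetine.

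Related genes were taken from lists of splicing and decay factors. Among 16 other hnRNP genes, 7 of 63 tested events were called in MCF10A (11.1%, 4 higher and 3 lower) and 8 of 79 in HMLE TWIST (10.1%, 4 higher and 4 lower). Among the SR proteins, serine- and arginine-rich activators of splicing that often counteract hnRNP proteins, 12 of 27 events (44.4%, 9 higher and 3 lower) and 9 of 27 (33.3%, 6 higher and 3 lower) were called. Of the factors of nonsense-mediated decay, 5 of 31 events (16.1%) and 8 of 39 (20.5%) were called. These counts are read against the 13.1% and 14.2% of all events.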

How the data were processed

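Stranded paired-end libraries of polyadenylated RNA were sequenced, per the labels' protocols. The submitters' processing notes name GRCh37 and STAR 2.5.3a; the annotation and the version of rMATS are not given in the sources used here. The authors deposited 1 rMATS skipped-exon table per line, whose cells hold the junction read counts of 2 replicates as a pair, without replicate numbers. Sample 1 was taken as control and sample 2 as emetine from the order in the table's name. The deposited p-value and FDR, and the inclusion difference, a score per event, are the authors' and serve only as an alternative.

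Inclusion and skipping counts were each divided by the effective length of their form, and the inclusion level is the share of the inclusion form in the sum. Events with at least 20 reads in every library and 10 reads of the rarer form (in each line, for fits over both) were fitted with a quasi-binomial logistic model (R 4.3.3). Dispersions were moderated with limma 3.58.1, with a prior from events with at least 5 fitted reads of each form, a choice made after seeing the data, and floored at 1. Shared dispersions were 2.05 to 2.19. P-values are two-sided and Benjamini-Hochberg adjusted over all tested events. With 2 libraries a group they rest on this sharing. The limma alternative used log2 odds with 0.5 added to each count. The model was tested on simulated data.

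Exons were matched to GENCODE 29 (another build) by length and spacing within the gene, and sequences read by transcript position; exons were aligned with Biopython 1.88. Described in full were exons with a called event in either line and coding exons with control levels between 0.05 and 0.95, others where stated. The members, lists and exons were chosen with earlier results of these data known. Of the members' events, 44 in MCF10A and 57 in HMLE TWIST were not tested, 6 and 3 for fewer than 20 reads in a library, the others because one form had too few reads.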

Additional observations from a re-analysis of the deposited data

Results flagged for a closer look

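The response to emetine differed between the lines in 2 exons by the line by treatment term of the quasi-binomial model. The change of the 57 nt exon of HNRNPD in HMLE TWIST exceeded that in MCF10A by 0.112, with control libraries at 0.724 and 0.751 in MCF10A and 0.685 and 0.619 in HMLE TWIST. The change of the 163 nt exon of HNRNPC was smaller in HMLE TWIST, with a difference of -0.102, and its 2 emetine libraries stood at 0.248 and 0.199 in MCF10A and 0.142 and 0.113 in HMLE TWIST. Limma called 0 of all 20127 events for this term.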

How the results depend on the processing

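With 2 libraries a group, calls rest on a spread shared across events. A threshold of 0.05 on the change raised the called member events to 13 of 36 in MCF10A and 10 of 36 in HMLE TWIST. Between the controls it gave 4 of 29, and between the emetine groups 7 of 37. Over all events that threshold called 5081 of 25522, 6564 of 30290, 1668 of 20516 and 3978 of 30086, in the same order. Under limma 0 were called for the difference of response and 0 between the emetine groups, as over all 20127 and 30086 events, and with each event's own dispersion where larger 0 for the difference of response. With no length correction the counts were 1 of 31 for the difference of response, 1 of 29 between the controls and 5 of 37 between the emetine groups. Over all events they were 352 of 20127, 1058 of 20516 and 2305 of 30086. Leaving out each library in turn gave 6 to 7 calls in MCF10A, 4 to 6 in HMLE TWIST, 1 to 3 for the difference of response, 0 to 2 between the controls and 1 to 4 between the emetine groups. With a change of at least 0.1, the authors' deposited FDR called 6 of 80 member events in MCF10A and 6 of 93 in HMLE TWIST. Over all events it called 5704 of 82355 and 7460 of 98244. The listed order did not pair the libraries (correlations of 0.0177 and 0.00667), and a replicate block by that order gave 6, 6, 2, 0 and 2 calls, as without it. Most single-exon values under alternatives belonged to contrasts with no call in the main model, where staying uncalled counts as the same. Counted so, 980 kept direction and call, 21 lost and 15 gained a call, and 10 changed sign, none of them called. These were, for the difference of response, the 26 nt exon of HNRNPC (-0.00337, -0.00612 and -0.0150, in a range of -0.0150 to 0.0296 without 1 library), the 136 nt exon of HNRNPA2B1 (0.0189, 0.00241 and 0.00395, in a range of -0.0248 to 0.0189 without 1 library, and 0.00413 with no length correction) and the 105 nt exon of HNRNPDL (0.00266 with no length correction). The others, each without 1 library, were the 36 nt exon of HNRNPA2B1 between the emetine groups (-0.00376 to 0.0285) and the 141 nt exon of HNRNPA3 in HMLE TWIST (-0.00656 to 0.0106). The causes were not tested. A planned negative binomial quasi-likelihood test was not run. The dispersion prior from all events, added after seeing the data, changed no count of member calls, but moved that over all events for the difference of response from 363 to 563.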
